A study of Mus musculus with 16 samples.

Results

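Transcripts that appeared in the nuclear RNA list of undifferentiated female mouse embryonic stem (ES) cells, and had no counterpart on the same strand in the list of differentiating cells, were examined. A transcript was taken when its row in the day 0 list was at least 1000 bp long, carried a single identifier, had an FPKM of at least 1 and overlapped no same-strand row of the day 3 list by 1 bp or more. The transcripts were thus selected on their RNA-seq listing, length and FPKM, the depth- and length-scaled fragment count that Cufflinks reports. Of the 40674 rows of the day 0 list, 5667 met the length, identifier and FPKM conditions, and 895 of these (15.8%) had no same-strand row at day 3. The other 4772 also had a row at day 3 and serve for comparison. In the other direction, 295 of 4691 day 3 rows meeting the same conditions (6.29%) had no day 0 row. The day 3 list was the shorter, with 28680 rows.

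The differentiating cells (day 3) had been kept for 3 days in suspension without LIF, and the undifferentiated cells (day 0) had been grown attached with LIF. CTCF CLIP, done with anti-FLAG beads after UV crosslinking, had 2 libraries at day 3 and 2 at day 0. CTCF ChIP had 1 library at day 3 and 2 at day 0, and rRNA-depleted nuclear RNA-seq had 1 library at day 3 and 1 at day 0. CLIP and RNA-seq cells carry the strain label CAST/Ei x 129/Sv/Jae, and ChIP cells carry 129S1/CastEiJ x 129S1, so the assays were not shown to share a cell line. Inputs of the ChIP and no-UV controls of the CLIP were not used here. The lists held 106382 and 165697 CLIP peaks at day 3, against 114016 and 213183 at day 0. They held 41268 ChIP peaks at day 3, against 45378 and 76746 at day 0. Read depth is unknown. In such bulk samples, fewer cells of a type and less RNA per cell cannot be told apart.

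LIF keeps mouse ES cells in the pluripotent state, and its withdrawal in suspension culture starts differentiation. Nuclear RNA holds unspliced precursors and short-lived noncoding RNA beside mature messages, so a list assembled from it contains many transcripts that a cytoplasmic list would lack. CTCF, known for its part in chromatin looping and insulation, occupies DNA through zinc fingers and also contacts RNA. CLIP recovers the RNA crosslinked to it, and ChIP recovers its DNA sites. No gene names stand beside the identifiers in the files, and no annotation of build mm9 was used here. The transcripts are therefore given by mm9 position, without gene names or sequence, and ES cell marker genes were not checked.

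The 895 transcripts were shorter, and had lower FPKM, than those listed at both days. Their median length was 1320 bp (quartiles 1105 and 2119 bp), against 1787 bp (1240 and 5696 bp) for the 4772 transcripts also listed at day 3. Their median day 0 FPKM was 4.20 (quartiles 2.01 and 7.11), against 6.37 (3.13 and 10.2). Length and FPKM were part of the choice of transcripts, so these values describe the set. Transcripts under 1500 bp made up 60.7% of it, and those of 20 kb or more made up 4.25%. The share of day 0 transcripts with no day 3 row was 24.9% at an FPKM of 1 to 2, 19.5% at 2 to 5, 13.9% at 5 to 10, 8.13% at 10 to 50 and 6.67% at 50 or more. By length it was 21.9% at 1000 to 1500 bp, 15.0% at 1500 to 2000 bp, 9.43% at 2 to 5 kb, 10.9% at 5 to 20 kb and 8.30% at 20 kb or more. Absence from the day 3 list thus went with low FPKM and short length at day 0. The rule itself favours short rows, as a longer row can more easily touch a day 3 row by 1 bp. How much of the fall with length comes from the rule was not tested.

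**Figure D1:**
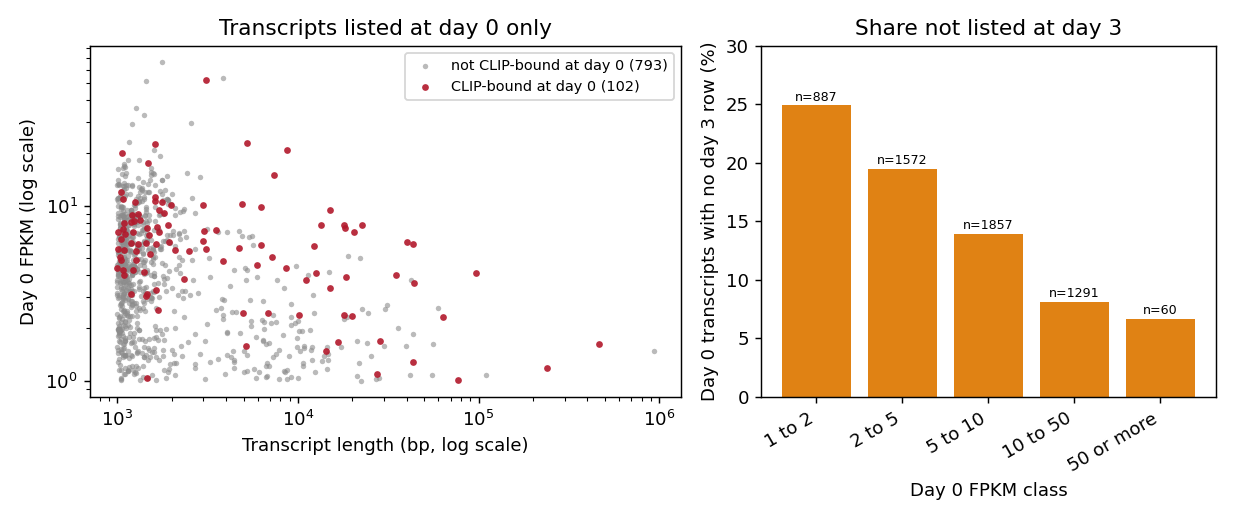
Left, each of the 895 transcripts listed at day 0 only by length (x, bp, log scale) and day 0 FPKM (y, log scale); red points are the 102 with same-strand CLIP peaks in both day 0 libraries. Right, the percentage of all 5667 day 0 transcripts meeting the conditions that had no day 3 row, by FPKM class, with the number in each class; it is 24.9% in the lowest class and 6.67% in the highest.

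For scale, the median FPKM of single-identifier day 3 rows was 9.99 at 1000 to 1500 bp and 1.19 at 20 kb or more. The median day 0 FPKM of the set was 4.64 and 1.67 in these classes. As the rule set a minimum FPKM, these values describe the set and say nothing of why a row is missing at day 3. With 1 RNA-seq library per day, absence from the day 3 list has no replicate check, and the part of depth or of transcript assembly in it was not tested.

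The thresholds fell within a continuous range of values. The lowest FPKM kept was 1.00, on chromosome 10, 62849311 to 62871588, plus strand. The nearest rows left out had 0.99, on chromosome 2, 56652237 to 56653665, and on chromosome 6, 133799873 to 133803685, both on the minus strand. The shortest transcripts kept were 1000 bp, among them chromosome 1, 63310975 to 63311974, plus strand, at an FPKM of 4.56. Rows of 999 bp were left out, among them chromosome 10, 96754849 to 96755847, plus strand, at 8.99.

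The highest day 0 FPKM belonged to a minus-strand transcript of 1761 bp on X, 70283264 to 70285024, at 66.4. A day 3 row on the same strand began 821 bp beyond its 3′ end. It had 0 and 3 CLIP peaks in the day 3 libraries, against 0 and 0 at day 0, so none was listed at the day of its high RNA-seq level. The next were chromosome 17, 22446447 to 22450274, minus strand, at 53.9, chromosome 2, 165635551 to 165638659, plus strand, at 52.3, and chromosome 9, 3020155 to 3021593, plus strand, at 51.4. Of the 10 transcripts of highest FPKM, which spanned 22.8 to 66.4, 7 lay within 5 kb of a same-strand day 3 row and 3 had no peak in any CLIP library.

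The longest transcripts had FPKM of 1.01 to 4.13. A plus-strand transcript on X, 134105147 to 135040850, ran over 935704 bp at an FPKM of 1.49 and had no CLIP peak in any of the 4 libraries. A plus-strand transcript of 466913 bp on chromosome 15, 94459616 to 94926528, had an FPKM of 1.63 with 4 and 10 CLIP peaks at day 3, against 11 and 13 at day 0. A plus-strand transcript of 97309 bp on chromosome 14, 99498432 to 99595740, had an FPKM of 4.13 with 5 and 22 peaks at day 3, against 17 and 15 at day 0. It thus had CLIP peaks in both day 3 libraries and no row in the day 3 RNA-seq list. A minus-strand transcript of 239998 bp on chromosome 9, 116491940 to 116731937, had 0 and 0 peaks at day 3, against 2 and 2 at day 0. In 3 of the 10 longest no peak was listed in any library.

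Many of the transcripts lay beside RNA that was listed at day 3. The nearest same-strand day 3 row was a median of 17301 bp away, with quartiles of 2890 and 66209 bp. It was within 1000 bp for 121 transcripts (13.5%), within 5 kb for 284 (31.7%) and within 50 kb for 628 (70.2%). Such a row lay upstream within 5 kb for 194 and downstream for 152, and on both sides for 62. These distances have no background, as the transcripts listed at both days overlap a day 3 row by definition. Another same-strand day 0 row lay within 5 kb of 43.7% of the set, against 36.6% of those listed at both days. A day 3 row on the opposite strand overlapped 397 of the 895 (44.4%), against 59.6% of the 4772 transcripts listed at both days. At day 0 an opposite-strand row overlapped 52.4%, against 64.9%. Longer transcripts are more easily overlapped and the set was the shorter, and these opposite-strand shares were not matched for length. A day 0 row on the other strand started within 1 kb of the start of 155 (17.3%), against 28.6%. No transcript of the set overlapped another day 0 row on its own strand.

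Some lay in runs. With gaps of at most 5 kb on a strand, 67 of the 895 fell into 25 runs of 2 to 6. The longest run held 6 minus-strand transcripts on chromosome 5, 33822506 to 33838926, with FPKM of 5.72 to 10.9. The run was not free of day 3 rows. On the same strand, 1 lay 236 bp upstream of its member at 33827952 to 33829784 and 276 bp downstream of that at 33830632 to 33831838, so between them. Another lay 260 bp upstream of the member at 33831960 to 33833580 and 293 bp downstream of that at 33834822 to 33836121. Together the 6 had 4 and 3 CLIP peaks at day 3, against 6 and 12 at day 0. A run of 3 plus-strand transcripts on chromosome 14, 22300673 to 22313617, with FPKM of 7.25 to 10.1, had 2 and 11 peaks at day 3, against 3 and 26 at day 0. Whether the transcripts of a run are pieces of 1 RNA was not tested. All counts and intervals given here take each transcript singly, so intervals may be too narrow.

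All 20 chromosomes from 1 to 19 and X held such transcripts. On X they were 46 of 217 day 0 transcripts (21.2%), against 15.6% of 5450 on autosomes, and X ranked 4 of 20 chromosomes. Chromosome 17 had the highest share (22.1%, 64 transcripts) and chromosome 15 the lowest (10.5%, 23 transcripts). Chromosomes 14 (21.7%) and 16 (21.5%) also stood above X. No test was made, as the list of each day came from 1 library. Of the 46 on X, 4 were CLIP-bound at day 3 and 2 at day 0.

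CLIP was not used in choosing the transcripts. A transcript was called CLIP-bound at a day when a same-strand peak fell in it in each of that day's 2 libraries. At day 3, 65 of the 895 were bound (7.26%, exact 95% Clopper-Pearson interval 5.65 to 9.16), against 19.0% of the transcripts listed at both days and 17.1% of all 5667. At day 0, 102 were bound (11.4%, 9.39 to 13.7), against 20.5% and 19.0%. At both days 42 were bound (4.69%), against 13.2% and 11.9%. The intervals cover counting error only. By library, a peak was found in 102 and 187 of the 895 at day 3, against 147 and 211 at day 0. Among the 4772 it was found in 1187 and 1543 at day 3, against 1216 and 1575 at day 0.

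The number of CLIP peaks in the set, taken as a share of each library, was lower in both day 3 libraries than in both day 0 libraries. The 895 transcripts held 193 and 413 peaks at day 3, against 334 and 628 at day 0. Per 1000 peaks of the library this was 1.81 and 2.49 at day 3, against 2.93 and 2.95 at day 0, with means of 2.15 ± 0.480 and 2.94 ± 0.0116 (SD, n = 2 each). The log2 ratio of the means was -0.45, and the days did not overlap. The 4772 transcripts listed at both days held 36.7 and 34.2 per 1000 at day 3, against 35.4 and 34.3 at day 0, a log2 ratio of 0.02, and there the days overlapped. The 295 transcripts listed at day 3 only held 1.55 and 1.12 at day 3, against 1.22 and 1.11 at day 0, a log2 ratio of 0.19. With 2 libraries against 2 an exact permutation test cannot go below p = 0.33, so none was made, and the difference between the sets was not tested. Without day 3 replicate 1 the ratio for the 895 was -0.24, and without day 3 replicate 2 it was -0.70.

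**Figure D2:**
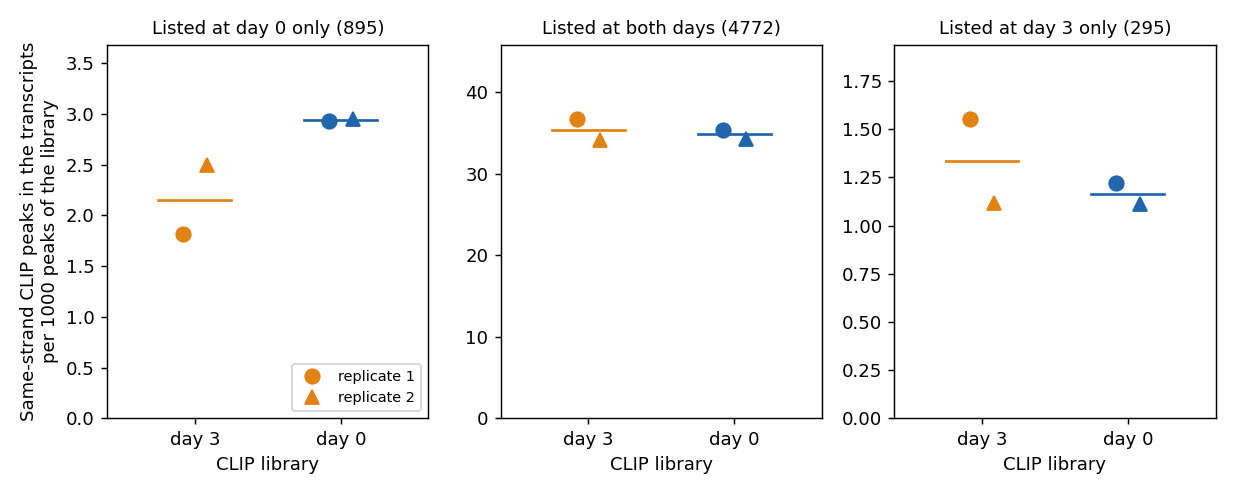
Same-strand CLIP peaks per 1000 peaks of the library (y, from 0, with its own scale in each panel) in transcripts listed at day 0 only (left), at both days (middle) and at day 3 only (right); circles are replicate 1, triangles replicate 2 and lines the mean of the 2 libraries. On the left both day 3 libraries (1.81 and 2.49) lie below both day 0 libraries (2.93 and 2.95), while in the middle the days overlap.

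The 10 transcripts with most peaks, chosen after their values were seen, held 18.1% and 21.1% of the peaks of the set at day 3, against 24.9% and 20.1% at day 0. Without them the log2 ratio was -0.40. It was -0.61 for the 368 transcripts with an FPKM of at least 5 and -0.64 for the 751 under 5 kb. It was -0.34 for the 611 more than 5 kb from a same-strand day 3 row, where the day 3 libraries had 0.874 and 1.41 per 1000, against 1.39 and 1.51 at day 0. In that subset the days overlapped.

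CLIP binding was more frequent in longer transcripts. The bound share of the set was 3.68% at day 3 and 6.63% at day 0 for lengths of 1000 to 1500 bp, against 5.27% and 6.71% in transcripts listed at both days. At 5 to 20 kb it was 16.0% and 22.6%, against 35.4% and 37.0%. At 20 kb or more it was 28.9% and 36.8%, from 38 transcripts, against 54.0% and 58.6%. At 2 to 5 kb it was 9.47% and 13.7%, against 21.4% and 22.5%. At 1500 to 2000 bp it was 7.08% and 13.3%, against 11.8% and 11.9%, so there the set lay above the others at day 0. Split by FPKM as well, the bound share at 1000 to 2000 bp was 2.02% at day 3 and 3.76% at day 0 for an FPKM of 1 to 5, against 4.63% and 4.10% in transcripts listed at both days. For an FPKM of 5 to 10 it was 7.51% and 13.1%, against 5.08% and 7.35%, and for 10 or more it was 5.15% and 10.3%, against 10.4% and 11.2%. At 2 kb or more the share was 10.5% and 14.4% for an FPKM of 1 to 5, against 24.2% and 26.5%. For 5 to 10 it was 30.4% and 41.3%, from 46 transcripts, against 38.9% at each day, and for 10 or more 4 and 6 of 12 transcripts were bound, against 61.5% and 64.8%. The shares of the set thus lay below those of the others in 4 of the 6 classes at both days, above them at both days in the short class of FPKM 5 to 10, and above them at day 0 alone in the long class of FPKM 5 to 10.

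**Figure D3:**
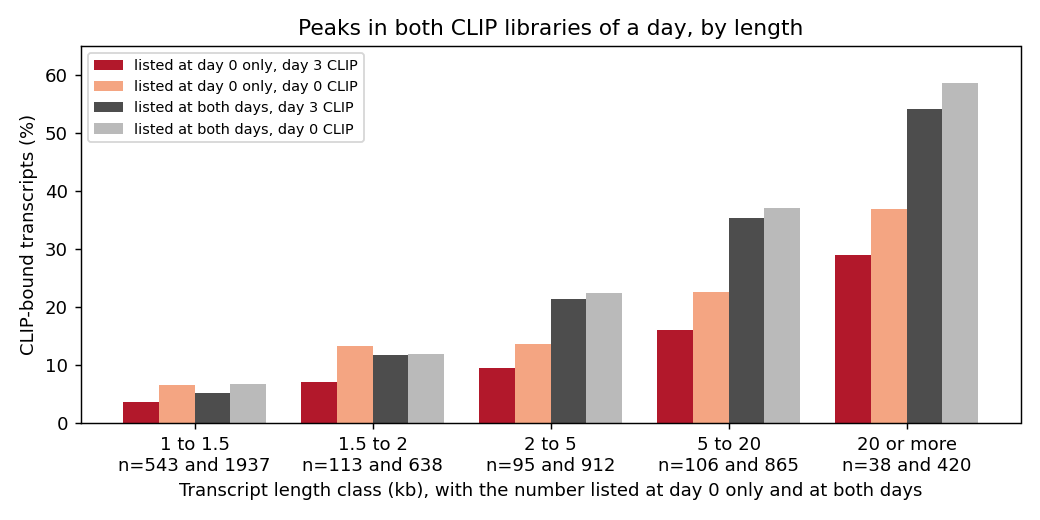
Percentage of transcripts with same-strand peaks in both CLIP libraries of a day (y) by length class in kb (x); red bars are transcripts listed at day 0 only (dark, day 3; light, day 0) and grey bars those listed at both days (dark, day 3; light, day 0). The shares rise with length in every series, to 28.9% and 36.8% in the red bars and 54.0% and 58.6% in the grey bars at 20 kb or more.

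Distance to day 3 transcripts went with binding as well. Of the 284 transcripts within 5 kb of a same-strand day 3 row, 12.0% were bound at day 3 and 18.3% at day 0. Of the 611 farther away, 5.07% and 8.18% were. Of the 267 more than 50 kb away, 3 were bound at day 3 (1.12%, exact 95% interval 0.232 to 3.25) and 9 at day 0 (3.37%, 1.55 to 6.30). Transcripts overlapped by an opposite-strand day 3 row were bound in 5.29% of 397 cases at day 3 and 6.05% at day 0, against 8.84% and 15.7% of the 498 without one.

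No single transcript of the set passed the test of CLIP peak bases between days. limma with Benjamini-Hochberg adjustment was run on all day 0 rows of at least 1000 bp with same-strand peaks in at least 2 of the 4 libraries, 10771 rows, and called 0 higher and 0 lower at an adjusted p of 0.05 (0% in each direction). The smallest adjusted p was 0.697. At an unadjusted p under 0.05 there were 382 higher (3.55%) and 365 lower (3.39%). Of the 895 transcripts, 183 entered the test, 141 had a peak in 1 library and 571 had none. At an unadjusted p under 0.05, 1 of the 183 was higher at day 3 (0.546%) and 13 were lower (7.10%). A row could enter the test through 1 day alone. Of the 183, 20 had peaks in both day 0 libraries and neither day 3 library, and 7 had the reverse. Most of the 13 were among the 20, and the 1 higher was among the 7. With peaks required in at least 3 libraries the split was 1 higher and 3 lower of 98. This split depended on the libraries and the model. It was 0 higher and 4 lower without day 3 replicate 1, and 1 and 11 without day 3 replicate 2. It was 1 and 1 without day 0 replicate 1, 4 and 2 without day 0 replicate 2, and 6 and 18 with the replicate number as a block. The difference was below 0 for 112 of the 183 (61.2%), against 50.3% of all rows tested, with a median log2 difference of -0.26, against -0.01. Without day 3 replicate 1 the median was 0.41, with 41.8% below 0, against 43.4% of all rows tested, so the direction of the median rested on that library. Scaled to the peak bases of the library, both day 3 libraries lay below both day 0 libraries in 48 of the 183 (26.2%), against 18.4% of all rows, and above them in 17 (9.29%), against 18.3%. The 48 include all 20 with peaks in both day 0 libraries alone, and the 17 include all 7 of the reverse kind.

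Peaks in both day 0 libraries and neither day 3 library were found in 20 of the 895 (2.23%), against 1.94% of all 5667, and the reverse in 7 (0.782%), against 1.13%. These shares were near those of all transcripts. The largest difference among the 20 was on chromosome 14, 41629157 to 41706555, minus strand, a transcript of 77399 bp at an FPKM of 1.01. It had 0 and 0 peaks at day 3, against 9 and 4 at day 0 (log2 difference -5.17 ± 1.57 SE, limma Benjamini-Hochberg adjusted p = 0.697), and a ChIP peak at its start in all 3 libraries. On chromosome 6, 67244236 to 67246210, plus strand, a transcript of 1975 bp at an FPKM of 10.1 had 0 and 0 peaks at day 3, against 1 and 6 at day 0. It followed another of the set, at 67240151 to 67241849, with a same-strand day 3 row between them. This earlier one had 4 and 5 peaks at day 3, against 6 and 11 at day 0. A pair of minus-strand transcripts lay close together on chromosome 8, at 119092979 to 119093988 and 119096538 to 119098169. Both had 0 and 0 peaks at day 3, against 1 and 3 at day 0 for the first and 3 and 2 for the other. Among the 7 with the reverse pattern was chromosome 3, 7572036 to 7613722, minus strand, a transcript of 41687 bp at an FPKM of 1.08 with 5 and 1 peaks at day 3, against 0 and 0 at day 0 (log2 difference 4.74 ± 1.63 SE, limma Benjamini-Hochberg adjusted p = 0.697). A transcript absent from the day 3 list could thus carry CLIP peaks at day 3 alone.

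The 10 transcripts with the densest CLIP signal in all 4 libraries all lay within 5 kb of a same-strand day 3 row, against 31.7% of the 895. Their median length was 1542.5 bp, against 1320 bp for the 895. Density is divided by length, so a ranking by it favours short transcripts. Density is given in same-strand peak bases per kb of transcript without scaling. Peaks covered 4.71 and 6.80 Mb in the day 3 libraries, against 4.92 and 8.30 Mb at day 0. Chromosome 7, 140177554 to 140178610, minus strand, at an FPKM of 19.9, had 1 and 2 peaks at day 3, against 8 and 5 at day 0. Its density was 40.2 ± 23.4 at day 3 and 338.7 ± 149.9 at day 0 (SD, n = 2 each; limma log2 difference -2.79 ± 1.06 SE, adjusted p = 0.697). This transcript lay between day 3 rows 504 bp upstream and 136 bp downstream on its strand.

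The transcript on chromosome 2, 165635551 to 165638659, plus strand, combined the third highest FPKM of the set with one of its densest CLIP signals. It had 1 and 5 peaks at day 3, against 15 and 13 at day 0. Its density was 37.2 ± 38.4 at day 3 and 211.3 ± 8.64 at day 0 (SD, n = 2 each; limma log2 difference -2.77 ± 0.84 SE, adjusted p = 0.697). Without day 3 replicate 2 the log2 difference of this transcript was -3.78. That fit had 1 library at day 3, so its spread came from day 0 alone, and no call is drawn from it. A ChIP peak lay at its start at day 3 and in day 0 replicate 2, but not in day 0 replicate 1. A day 3 row on the same strand began 219 bp beyond its 3′ end, and a day 3 row on the opposite strand overlapped it.

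Other dense transcripts differed less between the days. Chromosome 6, 67240151 to 67241849, plus strand, had a density of 124.5 ± 33.7 at day 3 and 178.0 ± 22.9 at day 0 (SD, n = 2 each). Chromosome 9, 40024975 to 40026584, minus strand, had 103.4 ± 27.7 at day 3 and 141.0 ± 7.03 at day 0. Chromosome 1, 183829479 to 183830697, minus strand, had 111.6 ± 44.1 at day 3 and 82.9 ± 5.80 at day 0. For each of these 3 the limma difference did not pass, with adjusted p of 0.932, 0.973 and 0.944 by the Benjamini-Hochberg method. Among the 10, mean density was lower at day 3 in 8. After scaling to the library, both day 3 libraries were below both day 0 libraries in 4 and above them in 1, against 18.4% and 18.3% of all rows tested. A peak in all 4 libraries was required for this list, so a transcript without peaks at a day could not be among them.

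**Figure D4:**
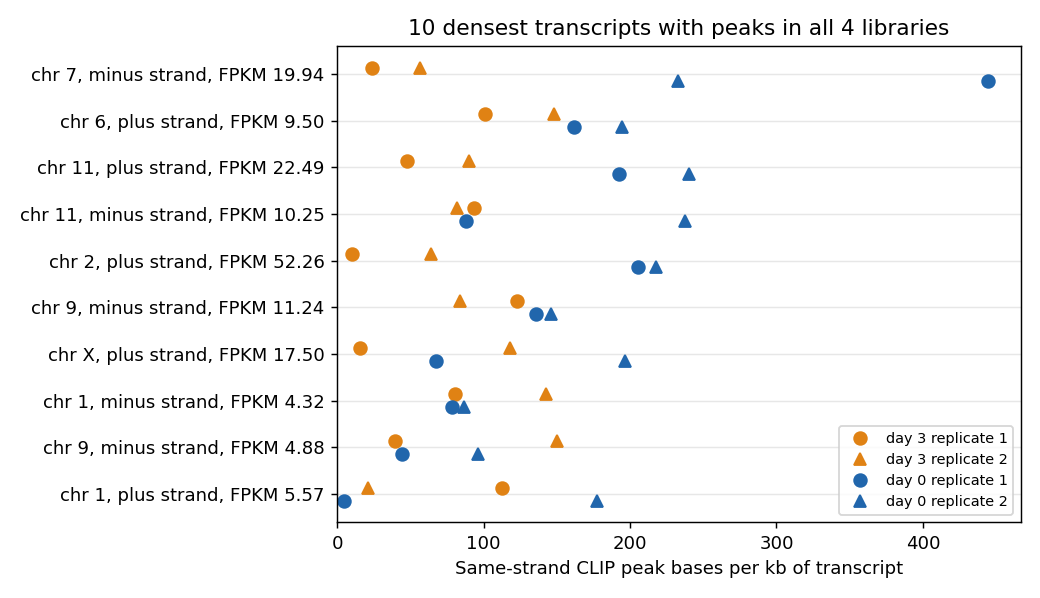
Same-strand CLIP peak bases per kb of transcript (x) in each library for the 10 transcripts with the highest mean density among those with peaks in all 4 libraries (y, by chromosome, strand and day 0 FPKM); orange is day 3 and blue day 0, circles replicate 1 and triangles replicate 2. On chromosome 7 the day 3 libraries average 40.2 and the day 0 libraries 338.7, while on chromosome 1, minus strand, they average 111.6 and 82.9.

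CTCF ChIP peaks at the transcript starts were about as common in the set as elsewhere. ChIP was not used in choosing the transcripts, and a peak counted when it overlapped the 1 kb on either side of the 5′ end. At day 3, 163 of the 895 starts had one (18.2%, exact 95% Clopper-Pearson interval 15.7 to 20.9), against 19.99% of the 4772 and 19.7% of all 5667. In both day 0 libraries 125 had one (13.97%, 11.8 to 16.4), against 14.9% and 14.8%. All 3 libraries had a peak at 117 (13.1%, 10.9 to 15.5), against 13.6% and 13.5%, and none had one at 600 (67.0%), against 64.8%. By library the shares were 18.2% at day 3, against 16.0% and 30.5% in day 0 replicates 1 and 2 of the set; the second of these lists was the longest. At the 3′ ends all 3 libraries had a peak for 121 (13.5%). Transcripts under 1500 bp made up 60.7% of the set, and windows of 1 kb at their starts and ends overlap and can share a peak. The shares at starts and ends are therefore not independent, and no conclusion is drawn from their closeness. The day 3 share at these starts, whose RNA the day 3 list lacks, was thus near the background.

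Peak centres were more frequent in the 2 kb after the starts of the set than in any other bin within 20 kb. In the 2 kb after the start there were 10.6 centres per 100 starts at day 3, against 9.61 and 17.2 in day 0 replicates 1 and 2. The median over all 2 kb bins within 20 kb was 6.70 at day 3, against 7.26 and 12.1. The transcripts listed at both days gave 11.4 at day 3, against 9.89 and 18.1 at day 0, in the same bin. In the 2 kb before the start the set had 7.93 at day 3, against 7.49 and 13.5 at day 0. With a median length of 1320 bp, the bin after the start also held the 3′ end of most transcripts of the set.

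**Figure D5:**
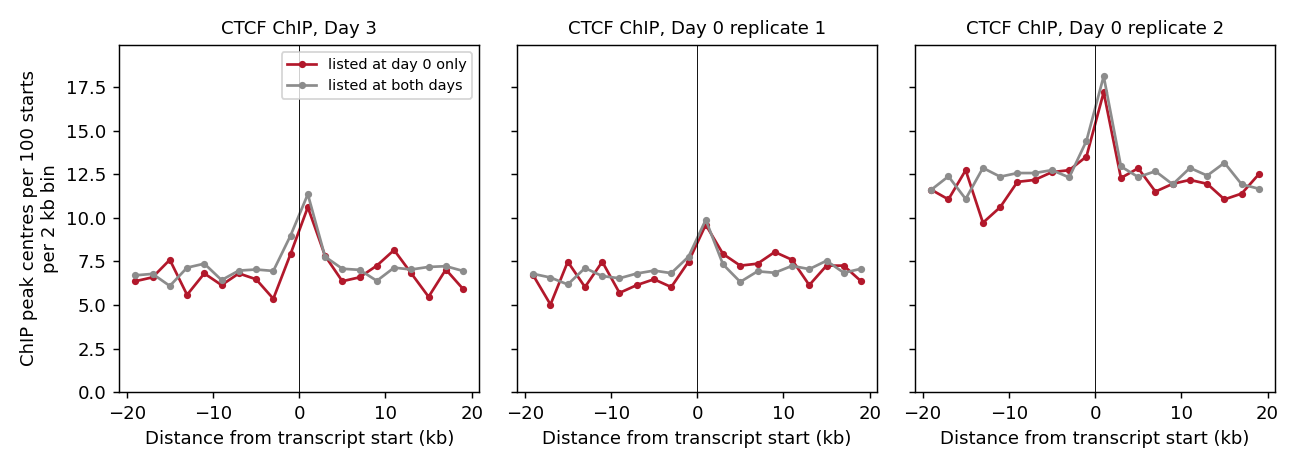
Centres of CTCF ChIP peaks per 100 transcript starts in bins of 2 kb (y) by distance from the start in kb, positive in the direction of transcription (x), for each ChIP library; red is transcripts listed at day 0 only and grey those listed at both days. Both lines peak in the bin after the start, at 10.6 and 11.4 in the day 3 library.

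The 10 transcripts of highest FPKM with a ChIP peak at the start in all 3 libraries had FPKM of 13.1 to 36.0 and lengths of 1086 to 1766 bp, and 9 of them had no CLIP peak in any library, as had 571 of all 895. The exception was the highest, chromosome 8, 73244445 to 73245714, plus strand, at 36.0, with 0 and 1 CLIP peaks at day 3, against 0 and 0 at day 0. Next came chromosome 5, 104759776 to 104761173, minus strand, at 32.9, and chromosome 7, 133646127 to 133647336, plus strand, at 29.2. An opposite-strand row overlapped 8 of the 10 at day 3 and 9 at day 0. Over the whole set, all 3 ChIP libraries had a peak at 66 of the 397 starts whose transcripts an opposite-strand day 3 row overlapped (16.6%, 13.1 to 20.7), against 51 of the 498 others (10.2%, 7.72 to 13.2). No test over transcripts was made for this difference.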

How the data were processed

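Peak and transcript lists of 9 libraries, on build mm9, were used. The submitters' processing notes name, without roles, Cufflinks 2.1.1, TopHat2 2.0.8, Novoalign 3.00.03, Trim Galore 0.3.3, cutadapt 1.0, bedtools 2.17.0 and SAMtools 0.1.18. No peak caller is named in the sources used here. The value of the deposited RNA-seq lists was taken as FPKM, which the files do not name. Each peak in the deposited lists has a score from the authors, used here only in an alternative that keeps the upper part of a list. Peaks were listed per library. Whether the replicates of a day came from separate cultures is not stated, and the spread behind the p-values may therefore be only technical.

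Transcripts were found by the stated rule. An overlap was at least 1 bp, on the same strand for CLIP. The test used limma 3.58.1 (R 4.3.3) on log2(x + 1), where x is a row's same-strand peak bases scaled to each Mb of its library's peak bases. It took 10771 day 0 rows with peaks in at least 2 libraries, day 3 over day 0, with Benjamini-Hochberg adjustment at 0.05. This scale understates differences of low rows. Other steps used Python 3.11.15 with pandas 2.3.3, NumPy 2.4.6, SciPy 1.17.1 and matplotlib 3.10.9. The code was tested on simulated data. Named transcripts were the 10 of highest FPKM, the 10 longest, the 10 densest in CLIP peaks among those with peaks in all 4 libraries, the 10 of highest FPKM with ChIP peaks at the start in all 3, and those nearest to the thresholds. Those with peaks at a single day, the runs and the transcripts on X were chosen after their values were seen. The members, lists and comparisons were chosen with earlier results of these data known. Alternatives changed the thresholds, overlap rule, peak score, window, pseudocount and scaling, added the replicate number, or left out a library. Allelic lists were not used here.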

Additional observations from a re-analysis of the deposited data

How the results depend on the processing

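Of 77 alternative values, 42 lay within a margin set for each result, without a change of direction or call. For the median CLIP difference of the set this margin was 1.69 log2 units, the median standard error of its transcripts. A median of -1.11 against -0.26 thus counted as kept. The number of transcripts was 368 with an FPKM minimum of 5, 2131 with none, 4978 and 239 with length minimums of 500 and 2000 bp, 1530 when a day 3 row had to cover 0.5 of the transcript, and 498 with no day 3 row on either strand. The bound share at day 3 and day 0 was 3.91% and 6.37% with peaks of at least median score, 1.90% and 4.02% where the replicates' peaks had to overlap, 4.36% and 2.68% with opposite-strand peaks, 10.6% and 17.1% at an FPKM of at least 5, and 5.07% and 8.18% beyond 5 kb of a day 3 row. With 1 library left out it was 11.4% to 20.9% at day 3 and 16.4% to 23.6% at day 0, as 1 library then sufficed. The ChIP share at starts in all 3 libraries, at day 3 and at day 0 was 10.5%, 14.5% and 10.9% within 500 bp, 17.4%, 22.7% and 19.1% within 2000 bp, and 9.05%, 12.2% and 10.8% with high-score peaks. At an FPKM of at least 5 the day 3 share was 21.2%. With 1 day 0 library left out, the share with a peak in all remaining ChIP libraries was 13.7% to 17.1%, and the day 0 share was 16.0% to 30.5%.

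With 1 library left out, 1 of the days had 1 library and the spread came from the other day alone. Adjusted limma calls of those fits are therefore not given. With peaks in at least 3 libraries limma called 6 of all rows tested, none of them in the set. The median CLIP difference of the set was -1.11 to 0.41 with 1 library left out, the highest without day 3 replicate 1, and the ratio of peak rates -0.70 to -0.24; the cause was not tested. The alternatives for this median and this ratio were chosen after seeing the data. Same-numbered replicates deviated together with a correlation of 0.03. With 2 libraries a day, crossed numbers give the same value with the opposite sign. Whether the numbers pair the samples is therefore unknown. With a replicate block limma called 0 of the set and 3 of 10771 rows, and the median stayed at -0.26. Read depth is unknown, and 2 libraries a day limit every CLIP comparison.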

Other observations

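CLIP peaks on the strand opposite to the 895 transcripts were found in 76 and 102 of them at day 3 (8.49% and 11.4%), against 50 and 106 at day 0 (5.59% and 11.8%). Among the 4772 transcripts listed at both days the shares were 4.95% and 9.14% at day 3, against 4.42% and 7.84% at day 0. Replicate 1 thus had more of the set with an opposite-strand peak at day 3 than at day 0, and replicate 2 fewer. Identifiers with an XLOC prefix, whose meaning the files do not give, were carried by 82 of the 895 (9.16%), against 15.6% of the 4772.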
